A study of Mus musculus with 8 samples.

Results

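The replication-dependent histone genes of mouse lung were examined. They were all rows of the count table whose Entrez identifier maps to a clustered histone gene, named Hist1h, Hist2h, Hist3h or Hist4h in older annotation. By this rule 68 of 23469 genes were members, with 6 genes for the linker histone H1, 18 for H2A, 19 for H2B, 12 for H3 and 13 for H4. Of these, 54 lie on chromosome 13 between positions 21715711 and 23934913 (GRCm38.p6, the build also named mm10), 10 on chromosome 3 between 96219885 and 96270192, 3 on chromosome 11 and 1 on chromosome 6. The H2B gene Hist1h2br has the symbol H4bc24 in the annotation used here and was kept in class H2B, and 1 member, H2bu1-ps, is a transcribed pseudogene.

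Lung RNA was analyzed in 4 groups of C57BL/6 mice. Wild type mice received PBS (WP) or house dust mite extract (HDM, WH), and DDAH1-transgenic mice, which overexpress an enzyme that degrades asymmetric dimethylarginine, received PBS (TP) or HDM (TH). The mice were given 50 µl of PBS into the trachea, alone or with 100 µg of HDM, on 3 occasions in each of 3 weeks, and lungs were taken 24 h after the last dose. RNA of 4 mice was pooled per group and sequenced as 2 libraries, so that the spread between libraries is technical and p-values do not cover variation between mice. The promoter of the transgene and the sex and age of the mice are not given in the sources used here.

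Histones package DNA into nucleosomes, each built of pairs of H2A, H2B, H3 and H4, while H1 binds the linker DNA. The replication-dependent genes are transcribed in S phase, when newly made DNA is packaged. Their mRNAs have no introns and end in a conserved stem-loop, bound by the protein SLBP, in place of a poly(A) tail. Replication-independent histones such as H3.3 and H2A.Z are made throughout the cell cycle from polyadenylated mRNAs, also in cells that no longer divide.

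The stem-loop was found in the annotated transcripts of 46 of the 50 members that have at least 30 bases after the stop codon, and in 24 of 19611 other genes (0.122%). It began 22 to 59 bases after the stop codon, with a median of 32. Among the 46 members 8 forms occurred, and a single form was present in 26 of them. H1f1, H2bc4, H2bc21 and H3c13 had no match, and the transcript of H1f5 has no bases annotated after its stop codon. The stem-loops of 5 genes whose values are described here are shown with 7 bases on either side, 5′ to 3′ in DNA letters, with the paired stem in capitals.
H1f2, chr13:23739512-23739527, plus strand: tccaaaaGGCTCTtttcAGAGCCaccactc
H2bc14, chr13:21722506-21722521, plus strand: acacaaaGGCTCTtttcAGAGCCactaagc
H2bc12, chr13:22036300-22036315, plus strand: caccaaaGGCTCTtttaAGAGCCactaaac
H3c4, chr13:23576244-23576259, plus strand: ccccaaaGGCTCTtttcAGAGCCacccccg
H4c4, chr13:23581950-23581965, plus strand: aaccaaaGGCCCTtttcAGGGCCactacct

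The coding sequences within a class are nearly alike, which limits what a read of 50 bases can tell apart. For each of the 67 members with a coding sequence, every window of 50 bases was searched in the coding sequences of the other members. In 35 members all windows were found in another member with at most 2 mismatches, and in 47 members at least 90% were. Members sharing 50% or more of their windows formed 5 groups, of 14 H2B, 12 H2A, 12 H3, 11 H4 and 3 H2A genes. In this search among the members 15 stood alone. Transcripts of genes that are no members also held windows exactly. Among these were all windows of H2aw, H2ac18, H2ac19, H3c14 and H3c15 and 16.3% of those of H2ac21, but no window of H1f5, H2bc21 or H4f16. H2bc23 and H4bc24 had identical counts in all libraries, as had H2ac23 and H2ac24. Reads of near-identical genes were evidently counted in several of them, so the members of such a group are not independent measurements. H1f5 shared only 3.53% of its windows and H4f16 only 1.90%, whereas H2bc21 shared 24.4%. A window of H2B, coding bases 274 to 323 of H2bc14, is shown because 15 of the 19 H2B genes hold it exactly; in the other lines capitals mark bases that differ from it.
H2bc14, chr13:21722371-21722420, plus strand: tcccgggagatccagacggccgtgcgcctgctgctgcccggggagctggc
H2bc21, chr3:96221439-96221488, plus strand: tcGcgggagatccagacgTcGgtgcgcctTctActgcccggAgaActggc
H2bu2, chr11:58949213-58949262, plus strand: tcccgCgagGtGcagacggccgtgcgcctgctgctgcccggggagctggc
H2bc21 differed from the shared window at 7 bases and H2bu2 at 3.

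**Figure D1:**
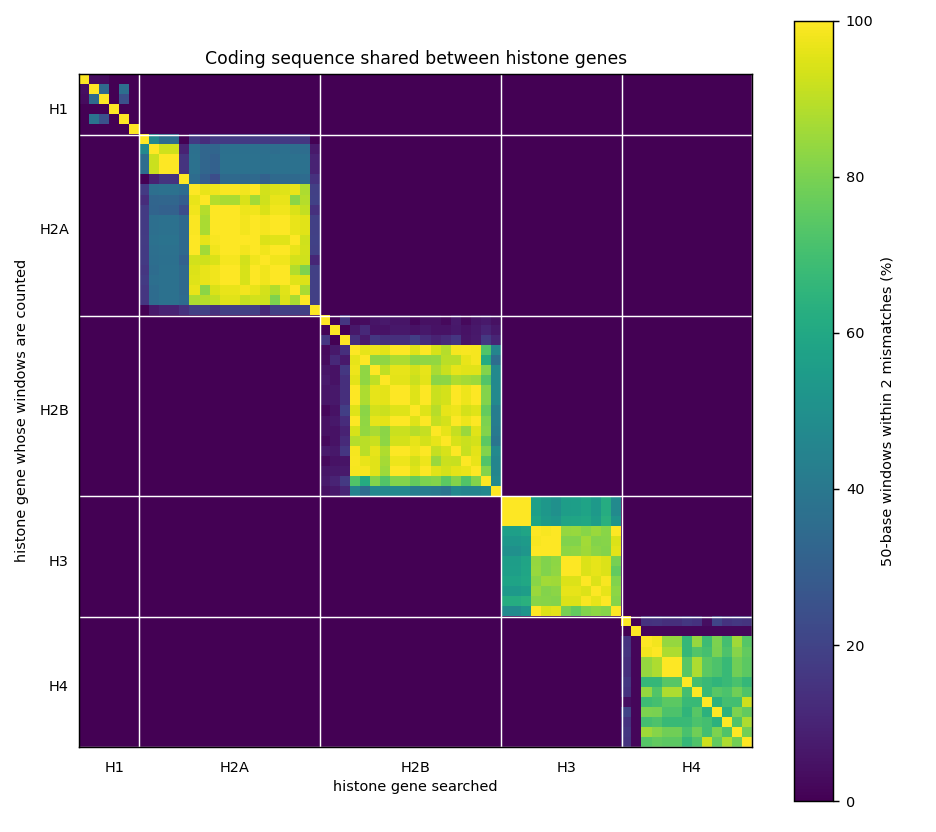
Share of 50-base coding windows, in percent, that each of 67 histone genes (rows) shares with each other gene (columns) with at most 2 mismatches; white lines part the classes. Yellow blocks are the groups of 14 H2B, 12 H2A, 12 H3 and 11 H4 genes, and no window was shared between classes.

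Total counts per library lay between 5694928 and 11929374, the lowest in library 1 of TH, and members took 0.0458% to 0.138% of them. Values are given as CPM, counts scaled to library size by TMM over the 8 libraries, and differences were judged against the spread between libraries. Ddah1, the overexpressed gene, had 47.6 and 34.3 CPM in WP and 77.2 and 53.7 CPM in TP, but 43.1 and 44.8 CPM in WH and 34.7 and 33.4 CPM in TH. Both TH libraries thus lay below both WH libraries, against the direction of their label, and they are called TH as labelled throughout. Neither genotype difference passed in the edgeR quasi-likelihood test. The log2 difference was 0.66 (SE 0.26, adjusted p = 0.358) in TP against WP and -0.32 (SE 0.29, adjusted p = 0.637) in TH against WH. Xist, transcribed from the inactive X chromosome of females, had 11.3 to 20.8 CPM in the 4 PBS libraries and 2051 to 3028 CPM in the 4 HDM libraries, while the Y-linked Ddx3y had 58.7 to 68.9 CPM and 0.179 to 0.302 CPM. HDM treatment and the sex of the pooled mice therefore cannot be told apart in any comparison of HDM with PBS. Of the 10 lung markers, all were present in every group, with summed levels of 42312 and 49949 CPM in WP, 22377 and 26024 in WH, 51154 and 73435 in TP, and 21953 and 30929 in TH.

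Most members were higher in HDM-treated than in PBS-treated wild type lungs, and most of the calls were H2B genes. Log2 fold changes were positive for 59 members, beside 7767 of all 15123 genes. Of the 63 members tested, 14 passed the threshold (edgeR quasi-likelihood test, adjusted p below 0.05), all of them higher in WH, where 4.44% of all 15123 genes tested were called higher and 6.74% were called in either direction. The median log2 fold change of the members was 1.09 against 0.02 over all genes. Both WH libraries lay above both WP libraries for 57 of the 63 members, and for 25.3% of all genes. Because 11 of the 14 called members belong to the H2B group that shares reads, the calls come from 4 groups of sequences. In bulk lung RNA, more cells that transcribe these genes and more RNA per cell cannot be told apart.

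H2B genes carried most of the calls, with 11 of 16 tested members higher in WH and a median log2 fold change of 1.37 in the class. H2bc14 (Hist1h2bm) had 12.3 and 14.95 CPM in WP and 47.96 and 51.9 CPM in WH. Its log2 fold change was 1.87 (SE 0.29), with an adjusted p of 0.00106. The identical H2bc23 and H4bc24 had 31.9 and 40.5 CPM in WP and 85.2 and 95.9 CPM in WH, a log2 fold change of 1.32 (SE 0.22, adjusted p = 0.00197). The other called members of the group, H2bc3, H2bc7, H2bc8, H2bc11, H2bc12, H2bc13, H2bc15 and H2bc22, had log2 fold changes from 1.22 for H2bc8 to 1.60 for H2bc3. In each of these genes the groups did not overlap. H2bc4 (Hist1h2bc), which is known to be made also as a polyadenylated transcript, had the smallest log2 difference of the class, with 41.6 and 50.6 CPM in WP, 62.9 and 64.8 CPM in WH and a log2 fold change of 0.47 (SE 0.22, adjusted p = 0.265). H2bc21, whose reads are largely its own, had 4.31 and 6.13 CPM in WP but 5.46 and 32.6 CPM in WH. Only library 2 of WH was high, and the groups overlapped (adjusted p = 0.120).

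In the H1 class H1f5 (Hist1h1b), a linker histone of dividing cells, had the largest fold change of all members tested. Its level was 0.401 and 0.572 CPM in WP, from 4 and 7 counts, and 14.9 and 3.32 CPM in WH, from 166 and 33 counts. The log2 fold change was 4.18 (SE 0.91, adjusted p = 0.0125), and library 1 of WH was the high one. Without library 1 of WH the log2 fold change was 2.73 and did not pass. H1f4 (Hist1h1e) had 31.2 and 37.9 CPM in WP and 49.1 and 57.1 CPM in WH, a log2 difference of 0.62 (SE 0.25, adjusted p = 0.179), and H1f2 (Hist1h1c) had 22.4 and 29.7 CPM against 26.8 and 32.8 CPM, with overlapping groups. H1f3 had 13.9 and 10.1 CPM in WP and 17.8 and 21.5 CPM in WH and did not pass.

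The H3 class had the highest median log2 fold change, 2.28 over 12 members, but from low counts. H3c4 (Hist1h3d) was the only H3 gene past the threshold, with 1.70 and 0.899 CPM in WP and 10.2 and 8.15 CPM in WH (log2 fold change 2.81, SE 0.71, adjusted p = 0.0286). Unadjusted p-values were below 0.05 for 11 of the 12 genes, beside 3014 of all 15123 genes. The 12 H3 genes form 1 group that shares reads, so they are not independent. H3c14, which had the highest CPM of the class, had 11.7 and 9.31 CPM in WP and 18.5 and 23.1 CPM in WH, a log2 difference of 0.98 (SE 0.39, adjusted p = 0.170). H3c15 and H3c13 lay at 3.91 and 5.72 and at 3.11 and 3.10 CPM in WP, and at 7.16 and 11.3 and at 6.53 and 10.1 CPM in WH.

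H4c4 (Hist1h4d) was the called member of class H4, with 12.9 and 19.5 CPM in WP and 35.3 and 40.7 CPM in WH and a log2 fold change of 1.22 (SE 0.32, adjusted p = 0.0362). H4c18 and H4c9 had log2 differences of 0.99 and 1.02 and did not pass, at 9.12 and 10.5 and at 7.01 and 8.33 CPM in WP, and 18.1 and 20.9 and 14.3 and 16.9 CPM in WH. H4f16 (Hist4h4), the lone gene on chromosome 6 whose reads are almost all its own, had 8.02 and 11.6 CPM in WP and 6.89 and 6.44 CPM in WH, a log2 difference of -0.56 (SE 0.51, adjusted p = 0.613). None of the 17 H2A members tested passed in edgeR or DESeq2. An unadjusted p below 0.05 was found for 2 of them, beside 3014 of all 15123 genes. H2ac23 and the identical H2ac24 had 10.6 and 7.84 CPM in WP and 13.96 and 23.1 CPM in WH. H2ac18 and H2ac19, which had the highest CPM of the class, had log2 differences of -0.03 and -0.02, with 28.3 and 28.8 CPM of H2ac19 in WP and 20.2 and 36.2 CPM in WH. H2aw had a log2 difference of -0.26 (SE 0.52).

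**Figure D2:**
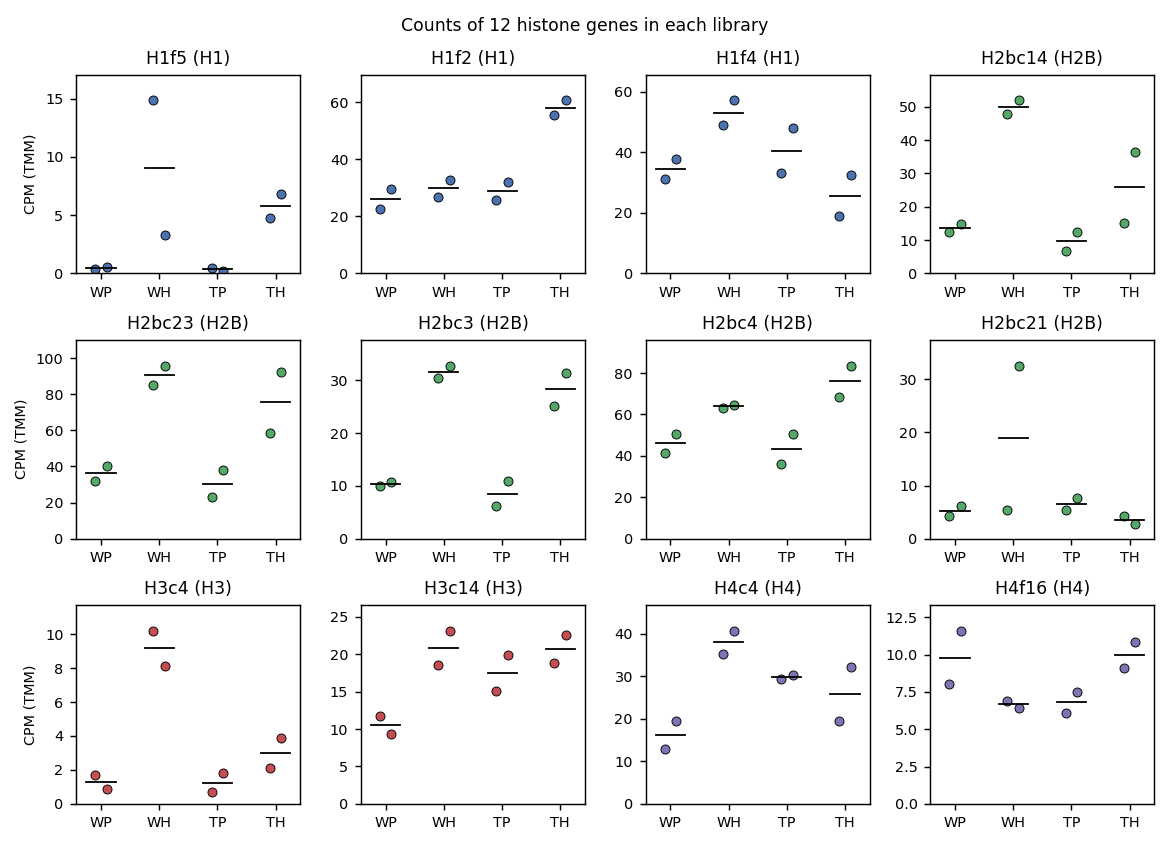
CPM (TMM over 8 libraries, linear axis from 0) of 12 histone genes; each point is 1 library and each bar the mean of the 2 libraries of a group. H2bc14, H3c4 and H4c4 lie higher in both WH libraries than in both WP libraries, whereas H4f16 does not, and library 2 of WH stands apart for H2bc21.

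In DDAH1-transgenic lungs 10 of the 62 members tested were higher in TH than in TP and none was lower, where 8.43% of all 15086 genes tested were called higher and 13.8% in either direction. The median log2 fold change of the members was 0.68 against 0.03 over all genes, and both TH libraries lay above both TP libraries for 32 members and for 28.6% of all genes. The called members were 8 H2B genes of the group that shares reads, together with H1f5 and H1f2. H2bc3 had 6.21 and 10.9 CPM in TP and 25.2 and 31.4 CPM in TH (log2 fold change 1.75, SE 0.44, adjusted p = 0.0211). H2bc23 had 23.2 and 37.8 CPM in TP and 58.8 and 92.6 CPM in TH, a log2 fold change of 1.33 (SE 0.33, adjusted p = 0.0204). The other called H2B genes, H2bc7, H2bc12, H2bc13, H2bc15 and H2bc22, and the identical H4bc24, had log2 fold changes from 1.33 to 1.51. H2bc14, which led in wild type lungs, had 6.71 and 12.5 CPM in TP and 15.2 and 36.5 CPM in TH and an adjusted p of 0.0808.

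H1f5 rose also in the transgenic lungs, with 0.5005 and 0.211 CPM in TP, from 5 and 2 counts, and 4.77 and 6.82 CPM in TH (log2 fold change 3.999, SE 1.08, adjusted p = 0.0296). H1f2 had 25.7 and 31.98 CPM in TP and 55.5 and 60.6 CPM in TH (log2 fold change 1.03, SE 0.29, adjusted p = 0.0367). H1f4, in contrast, had 33.1 and 47.9 CPM in TP and 18.8 and 32.6 CPM in TH, a log2 difference of -0.63 (SE 0.36, adjusted p = 0.284). H2ac18 and H2ac19 had log2 differences of -0.79 (SE 0.59), with 16.01 and 43.3 CPM of H2ac19 in TP and 6.86 and 26.7 CPM in TH, and did not pass. No member of H3 or H4 passed in edgeR or DESeq2. None had an unadjusted p below 0.05, beside 4186 of all 15086 genes. The median log2 difference was 1.38 over the 12 H3 genes, with SEs near 1.14 in the group that shares reads, and 0.08 over the 13 H4 genes.

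The 2 treatment comparisons use different libraries. They had 9 called members in common, which are 64.3% of the 14 called in wild type lungs and all but 1 of the 10 called in transgenic lungs, namely H1f5 and 8 H2B genes that share reads, so that the overlap comes from 2 sequence groups. Over all genes, 547 were called in the same direction in both, which are 53.6% of the 1020 and 26.3% of the 2079. The calls in transgenic lungs depended on the processing. With an offset for each library's trend of counts with transcript length none of the 62 members passed and their median log2 difference was 0.09, while 9.58% of all genes were called, although the offset moved the median of all genes by only -0.10. Leaving out library 1 or library 2 of TP also left 0 calls, with 2.56% and 1.76% of all genes called, while the median of the members was 0.52 and 1.58. Without library 2 of TH there were 4 calls, of which 3 were lower, with 17.3% of all genes called and a median of 0.44. In wild type lungs the same offset left 9 calls and a median of 0.84, with 6.20% of all genes called, and leaving out library 1 of WP left 7 calls and a median of 1.19, with 4.71% of all genes called.

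**Figure D3:**
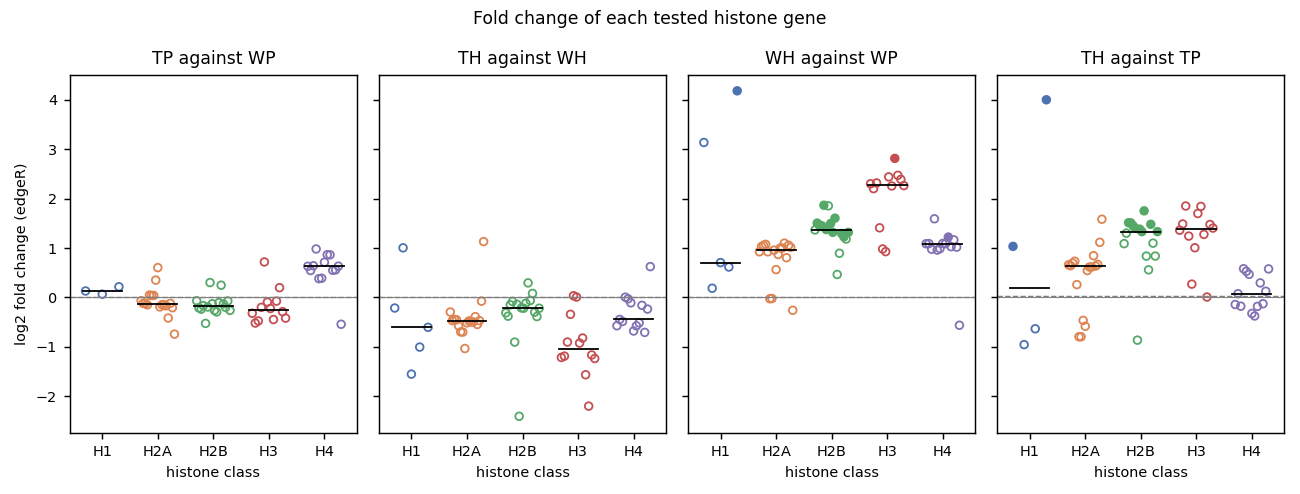
Log2 fold change (edgeR) of each tested histone gene, by class, in 4 comparisons; filled points passed the threshold, the black bars are class medians and the dashed line is the median of all genes. H2B genes lie above 0 in WH against WP and, except 1, in TH against TP, whereas few points are filled in the other classes and none in TP against WP or TH against WH.

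The genotypes were compared under each treatment. No member passed the threshold in PBS-treated lungs, where 0.657% of 14926 genes were called by edgeR and 61 members were tested. Of these members 1 had an unadjusted p below 0.05, beside 9.98% of all genes. DESeq2 called 0 members, beside 1.49% of all genes. The median log2 difference of TP against WP was -0.12, and the members lay on both sides of 0. Its sign depended on single libraries, since it was 0.24 without library 1 of TP, 0.10 without library 1 of WP and -0.64 without library 2 of TP. Both TP libraries lay below both WP libraries for 2 members and for 20.3% of all genes, and above them for 14 members and for 20.1% of all genes. H4c4 had the smallest p, with 12.9 and 19.5 CPM in WP and 29.3 and 30.3 CPM in TP (log2 difference 0.86, SE 0.33, adjusted p = 0.361). All 11 H4 genes that share reads had positive log2 differences, with a median of 0.63 and SEs near 0.58, and H4c14 had 0.98 (SE 0.66), while H4f16 had -0.54 (SE 0.52). H3c14 had a log2 difference of 0.72, H2aw one of -0.74 and H2bc14 one of -0.52, none of which passed.

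In HDM-treated lungs no member passed either, where 2.44% of 15191 genes were called. Of the 63 members tested 6 had an unadjusted p below 0.05, beside 16.2% of all genes. DESeq2 called 2 members, H1f2 and H2bc21, beside 5.86% of all genes. The median log2 difference of TH against WH was -0.45, with 55 of 63 members negative, and both TH libraries lay below both WH libraries for 22 members and 25.1% of all genes. The median changed to -0.07 without library 1 of TH and to -1.03 without library 2, where 7 members passed, all lower, with 4.28% of all genes called lower. With the transcript-length offset it was -1.04 and no member passed. H1f2 had 55.5 and 60.6 CPM in TH and 26.8 and 32.8 CPM in WH, with no overlap, a log2 difference of 1.004 (SE 0.29) and an adjusted p of 0.0996. H1f4 had a difference of the opposite sign, at 18.8 and 32.6 CPM against 49.1 and 57.1 CPM (log2 difference -1.004, SE 0.33, adjusted p = 0.154). H2bc21 had the most negative value, -2.40 (SE 0.76, adjusted p = 0.136), which rests in part on the high library 2 of WH. Values for H2bc14, H2aw and H2bc4 were -0.90, 1.13 and 0.30, and none passed.

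Whether the genotype difference itself depended on treatment was tested on all 8 libraries, as TH against WH minus TP against WP. It passed for 279 of 15868 genes, or 1.76%, and for none of the 63 members. Of these members 4 had an unadjusted p below 0.05, beside 14.7% of all genes. DESeq2 called 0 members, beside 4.29% of all genes. The median over the members was -0.40 on the log2 scale, but it was 0.12 without library 2 of TP, -0.02 without library 1 of TH, -1.18 without library 2 of TH and -1.07 with the transcript-length offset. The smallest p-values belonged to H4c4, with -1.42 (SE 0.49, adjusted p = 0.167), H2bc21, with -2.75 (SE 0.97), and H1f4, with -1.26 (SE 0.45), and on the positive side to H2aw, with 1.82 (SE 0.77), H1f2, with 0.82 (SE 0.41), and H4f16, with 1.12 (SE 0.74).

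The counts were also summed over each class in each library, where a read of a shared sequence can enter the sum several times. The 19 H2B genes summed to 244 and 315 CPM in WP, 625 and 723 CPM in WH, 201 and 306 CPM in TP, and 457 and 677 CPM in TH. Both HDM libraries of each genotype lay above both PBS libraries. H3 genes summed to 32.6 and 25.7 CPM in WP, 92.8 and 97.2 in WH, 28.3 and 39.0 in TP, and 48.5 and 70.4 in TH, again without overlap. H4 genes summed to 81.5 and 96.4 CPM in WP and 165 and 193 CPM in WH, but in transgenic lungs to 151 and 117 CPM in TP and 113 and 167 CPM in TH, which overlap. Scaled to library totals the sums of H4 were 132.5 and 98.4 in TP and 132.9 and 187 in TH, which do not overlap. The sums of H1 were 68.2 and 78.4 in WP, 110 and 116 in WH, 71.1 and 94.0 in TP and 79.8 and 114 in TH, where TP and TH overlap, but not when scaled to library totals, with 62.6 and 79.2 in TP and 93.9 and 128 in TH. H2A sums were 143 and 122 CPM in WP, 145 and 247 in WH, 70.1 and 185 in TP, and 84.7 and 200.1 in TH, and in WH, TP and TH their libraries lay further apart in ratio than those of any other class.

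**Figure D4:**
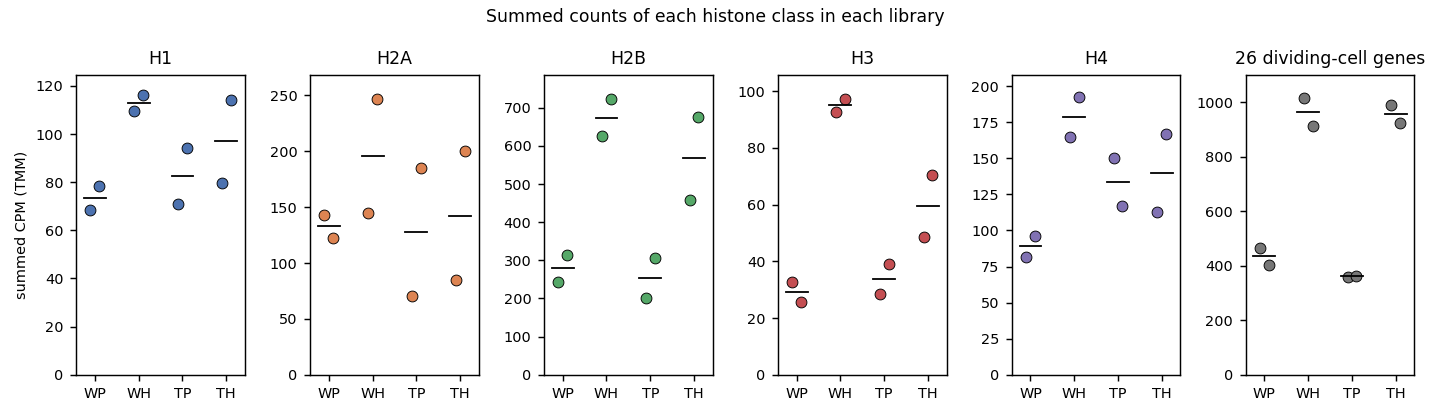
Summed CPM (TMM, linear axes from 0) of the genes of each histone class and of 26 marker genes of dividing cells in the 8 libraries; points are libraries and bars the means of 2. The sums of H2B, H3 and the dividing-cell genes lie higher in both HDM libraries than in both PBS libraries of each genotype, and the 2 libraries of WH, TP and TH stand far apart for H2A.

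The 2 libraries of a pool, which hold the same RNA, differed for many members. With 0.5 CPM added to each value, in TP 17 of 63 members were over 2-fold higher in library 2 and 1 over 2-fold lower, 28.6% together, beside 16.5% of all genes. In TH 20 members were over 2-fold higher in library 2 and none lower, 31.7% beside 20.8% of all genes. In WP no member and in WH 3.17% of members differed by that much, beside 12.7% and 17.3% of all genes. H2A genes stood out in TP, where 15 of 17 were over 2-fold higher in library 2 and the median log2 ratio was 1.35, and in TH, with 13 of 17 and a median of 1.22. H2ac19 had 16.01 and 43.3 CPM in TP and 6.86 and 26.7 CPM in TH. H1f3 had 0.746 and 12.02 CPM in TH, from 5 and 155 counts, and H3c6 had 0 counts in library 1 of TH and 2.40 CPM in library 2. The 12 H2A genes of the largest H2A group share reads, so their shifts are not independent. H2ac18 and H2ac19, of another group, had log2 ratios of 1.41 in TP and 1.88 in TH. Of the genes that stand alone among the members, H2aw had 1.09 in TP and 0.35 in TH, and H2ac21 had 0.39 and 1.43. All windows of H2aw occur also in transcripts of genes that are no members.

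**Figure D5:**
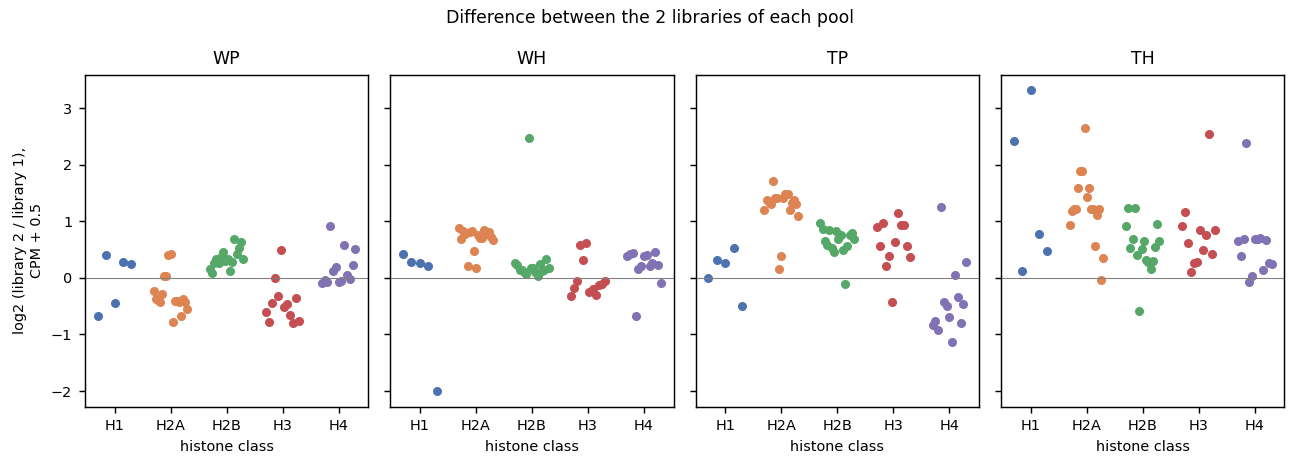
Log2 ratio of library 2 to library 1 (CPM plus 0.5) for the 63 histone genes tested on all libraries, by class, in each pool; each point is 1 gene and 0 means equal libraries. Most H2A points lie above 1 in TP and TH, whereas all points lie between -1 and 1 in WP.

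Some genes of dividing cells were also higher under HDM in both genotypes. Of the 26 listed, 6 of 25 tested were called higher in WH than in WP, beside 4.44% of all genes. In TH against TP 13 of 26 were called higher, beside 8.43% of all genes. None was called lower, and the median log2 fold changes were 1.32 and 1.84. The list was not uniform, and E2f1, a transcription factor of the S phase entry chosen after its values were seen, had log2 differences of -0.55 (SE 0.24) in WH against WP and -1.02 (SE 0.36) in TH against TP, neither of which passed. The summed level of the list was 402 to 467 CPM in WP, 913 to 1017 CPM in WH, 360.1 to 364 CPM in TP and 926 to 990.4 CPM in TH, and no gene of the list was at 0 in both libraries of a group. Mki67, a nuclear protein of cycling cells, had 73.1 and 64.1 CPM in WP and 296 and 292 CPM in WH (log2 fold change 2.09, SE 0.15, adjusted p = 8.8e-07), and Top2a, which untangles replicated DNA, had a log2 fold change of 2.45 (SE 0.22, adjusted p = 7.6e-06). In transgenic lungs they had 2.11 (SE 0.22) and 3.14 (SE 0.31). Between genotypes no gene of this list passed in edgeR, with medians of -0.34 under PBS and 0.05 under HDM. Unadjusted p-values were below 0.05 for 2 and 3 genes, beside 9.98% and 16.2% of all genes. DESeq2 called 0 and 1, beside 1.49% and 5.86% of all genes. Whether the number of dividing cells accounts for the histone values was not tested.

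Of 14 genes that make or degrade histone mRNA, 0 of 13 tested passed in WH against WP by edgeR or DESeq2. At an unadjusted p below 0.05 were 2 of them, beside 3014 of all 15123 genes. In TH against TP 1 of 14 passed, beside 13.8% of all genes. This was Slbp, the stem-loop binding protein, with 11.3 and 18.5 CPM in TP and 60.3 and 34.0 CPM in TH (log2 fold change 1.69, SE 0.40, adjusted p = 0.0163). In wild type lungs Slbp had 15.4 and 12.3 CPM under PBS and 21.03 and 28.6 CPM under HDM (log2 difference 0.84, SE 0.36, adjusted p = 0.21). Cpsf2, a subunit of the cleavage complex, had 0.76 (SE 0.25, adjusted p = 0.0964). Neither tool called a gene of the list between genotypes or in the interaction. In each of these comparisons 1 gene had an unadjusted p below 0.05. Of all genes, 9.98% did under PBS, 16.2% under HDM and 14.7% in the interaction. Of the 13 histone chaperones, Chaf1a, a subunit of the chromatin assembly factor that works at replication forks, was higher in WH than in WP with a log2 fold change of 2.64 (SE 0.73, adjusted p = 0.0447), but with 4.47 and 23.7 CPM in the libraries of WH, and no other chaperone passed in any comparison.

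Among listed replication-independent histones, all calls in the 2 treatment comparisons were higher under HDM, as for the members, whereas TH against WH differed. In WH against WP 3 of 10 tested were higher, beside 4.44% of all genes. They were H2ax, with 1.52 (SE 0.32), Macroh2a1, with 0.999 (SE 0.25), and H2az1, with 1.03 (SE 0.20). In TH against TP 5 of 10 were higher, beside 8.43% of all genes. Among them were H3f3a, with 1.89 (SE 0.20), and H2az1, with 1.56 (SE 0.23). In TH against WH, where no replication-dependent gene passed, 3 of 10 were higher, beside 279 of 15191 genes. H3f3a, which encodes H3.3, had 168 and 188 CPM in WH and 944 and 688 CPM in TH (log2 fold change 2.24, SE 0.21, adjusted p = 0.000525), H2az2 had 19.5 and 15.9 CPM and 108 and 45.4 CPM (2.16, SE 0.40), and H3f3b had 355 and 330 CPM and 566 and 546 CPM (0.74, SE 0.17). Values of these 3 genes with a length offset or with a library left out are not given here. The transcript-length offset moved the members' median in TH against WH from -0.45 to -1.04. In PBS-treated lungs none of the 10 passed between genotypes in edgeR or DESeq2. None had an unadjusted p below 0.05, beside 9.98% of all genes.

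Markers of other cells also differed between the groups. Of all genes, 672 of 15123 were called higher and 348 lower in WH against WP. In TH against TP 1272 of 15086 were called higher and 807 lower. In TP against WP 42 of 14926 were called higher and 56 lower, and in TH against WH 279 of 15191 higher. B and plasma cell genes were higher in WH than in WP for 7 of 10 and in TH than in TP for 9 of 9, with Jchain at log2 fold changes of 2.58 (SE 0.13) and 4.26 (SE 0.18). Their summed level was 265 and 298 CPM in WP, 1263 and 1188 in WH, 173 and 162 in TP, and 2247 and 2358 in TH, with 1 of the 10 genes at 0 in both libraries of WP. In TH against WH, Jchain and Mzb1 were higher. Of 7 erythroid genes 3 were lower in WH than in WP and 4 lower in TH than in TP, 1 was higher in TH than in WH, namely Hbb-bs, and 3 were higher in TP than in WP, among them Hba-a1, with a log2 fold change of 0.73 (SE 0.09). The erythroid sums were 6249 and 7395 CPM in WP, 2525 and 3241 in WH, 10618 and 11844 in TP, and 2882 and 4172 in TH. Hba-a1 and Hba-a2 had identical CPM in every library, so they are not independent measurements in these counts and sums. The 12 genes listed for thymocytes include Cd4, Lck and Tcf7, which are not specific to T cell precursors. Of the list, 3 were lower in TP than in WP (Cd4, Rag1 and Tcf7). Lower in WH than in WP were also 3 (Rag1, Rag2 and Dntt), and Cd4 and Lck were higher in TH than in TP. Rag1 had 18.9 and 30.3 CPM in WP and at most 1.04 CPM in every other library. Of the 12 genes, 2 were at 0 in both libraries of WH and 1 in both of TP, and the summed levels were 175 and 203 CPM in WP, 142 and 148 in WH, 78.0 and 89.1 in TP, and 150.03 and 129 in TH. Lung markers passed in each comparison, among them Scgb1a1, lower in WH than in WP by a log2 value of -1.46 (SE 0.09) and in TH than in TP by -1.95 (SE 0.19). The part of these cells in the histone values was not tested.

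The promoters of the members were searched for short motifs. Members that share reads are not independent measurements, so their joint movement does not show shared control of their promoters. The RefSeq table (GRCm38.p6), which gives 300 bases around each gene's start, matched 62 members. On either strand, the motif CCAAT was present in 85.5% of them and in 41.1% of all 27025 promoters of the table. The motif TATAAA was present in 56.5% and 15.7%, the octamer ATTTGCAT in 22.6% and 1.97%, and GGGCGG in 38.7% and 38.2%. All promoters of H1, H2A, H2B and H3 held CCAAT, but 3 of 12 of H4 did. The octamer was found in 7 of 18 H2A and 7 of 16 H2B promoters and in no promoter of H1, H3 or H4. The promoter stretches of some neighbouring H2A and H2B genes on opposite strands overlap, as for H2ac12 with H2bc12 and H2ac13 with H2bc13. A motif in such an overlap is counted for both genes, among them the octamer of H2ac12 and H2bc12. The motif shares are therefore not independent between such genes. A match is a description, not a binding site. Promoters of 3 called genes of different classes are shown, printed on the strand of the gene, with matches to a motif on either strand in capitals.
H2bc14, chr13:21721794-21722093, plus strand: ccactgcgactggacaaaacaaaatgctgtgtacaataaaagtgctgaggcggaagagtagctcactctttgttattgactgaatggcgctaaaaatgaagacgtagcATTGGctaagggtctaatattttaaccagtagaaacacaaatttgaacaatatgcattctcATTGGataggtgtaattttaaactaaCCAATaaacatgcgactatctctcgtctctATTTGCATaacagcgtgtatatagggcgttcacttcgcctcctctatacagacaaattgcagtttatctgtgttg
H4c4, chr13:23581318-23581617, plus strand: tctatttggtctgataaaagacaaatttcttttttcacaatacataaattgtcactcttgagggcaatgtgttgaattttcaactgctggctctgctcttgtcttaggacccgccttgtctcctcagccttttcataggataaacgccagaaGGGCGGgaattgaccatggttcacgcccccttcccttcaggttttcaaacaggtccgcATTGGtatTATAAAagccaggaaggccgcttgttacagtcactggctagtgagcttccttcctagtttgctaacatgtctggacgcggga
H1f5, chr13:21780576-21780875, minus strand: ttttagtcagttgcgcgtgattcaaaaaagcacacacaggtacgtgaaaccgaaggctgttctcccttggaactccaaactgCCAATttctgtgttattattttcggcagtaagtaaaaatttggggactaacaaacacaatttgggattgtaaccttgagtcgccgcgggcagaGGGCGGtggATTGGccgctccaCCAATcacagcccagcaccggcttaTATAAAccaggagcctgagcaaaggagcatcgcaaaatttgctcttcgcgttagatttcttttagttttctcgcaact
All 3 hold CCAAT. H2bc14 also holds the octamer, while the promoters of H4c4 and H1f5 also hold both remaining motifs.

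Some members were too low to test. H1f6, H2ac1, H2bc18, H2bu2 and H2bu1-ps passed the filter in no comparison, with at most 13 counts in a library. H1f5 was not tested in TP against WP, and H1f1 was tested in 3 of the 5 comparisons, with at most 28 counts in a library. Of the members outside the 5 groups of shared sequence, 11 were tested in WH against WP, of which 9 had positive log2 differences and 1, H1f5, passed. Several of them still share windows below the limit of 50%, as H2bc1 with 48.1% and H1f3 with 48.0%. All windows of H2aw occur in transcripts of genes that are no members. This tally is therefore not free of shared reads.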

How the data were processed

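Lung RNA of 4 mice per group was pooled, amplified with a PrepX SPIA kit from 10 ng and sequenced as 2 libraries of single 50-cycle reads. Per the study's methods and processing notes, the authors called bases with CASAVA 1.8 and bcl2fastq, aligned reads with TopHat to mm10 and deposited raw counts of the reads falling in each gene's coding sequence (ShortRead and custom R programs). How reads with several alignments were counted is not given in the sources used here. All 8 columns were used, grouped by their titles. Gene names came from RefSeq GRCm38.p6 for 23372 of 23469 identifiers, and coding sequences and lengths from GENCODE M21.

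Counts were tested as deposited with edgeR 4.0.16 in R 4.3.3 (quasi-likelihood test, TMM, filterByExpr with a minimum count of 10), fitted to all genes. Each pair of groups used its own 4 libraries, and the interaction used all 8. P-values were adjusted by Benjamini-Hochberg over all genes tested, with a threshold of 0.05, and SE is the log2 fold change divided by the square root of F. Genes named were the members past the threshold, the 3 most abundant of each class, the 3 tested members with the smallest p in each direction of a comparison, Ddah1, and from 8 gene lists those past the threshold or, where none or more than 4 passed, the 2 with the smallest p. Other genes were named after their values were seen. The members and lists were chosen with earlier results of these data known. Scripts were tested on simulated data. Alternatives were DESeq2 1.42.0, RLE normalization, no filter, a replicate block, each library left out, all 8 libraries in a fit, library sizes without Rn45s and haemoglobin, and offsets for length (loess, span 0.5). No interval is given for CPM of single libraries.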

Additional observations from a re-analysis of the deposited data

Results flagged for a closer look

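No replication-dependent histone gene had a genotype effect that differed between HDM and PBS by the test of the interaction. Among the related genes examined, 2 replication-independent histones did. The log2 genotype effect of H3f3a was higher under HDM than under PBS by 2.25 (SE 0.24), with an adjusted p of 1.7e-05 by edgeR, and both TH libraries lay above all other libraries, at 944 and 688 CPM. For H2az2 the difference was 2.28 (SE 0.52, adjusted p = 0.0278), with 108 and 45.4 CPM in TH and 15.8 to 19.8 CPM elsewhere. Values of these 2 genes with a length offset or with a library left out are not given here. The transcript-length offset moved the median of the replication-dependent genes in the interaction from -0.40 to -1.07.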

How the results depend on the processing

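The replicate numbers of the groups are shared, but the labels do not say that a number marks a shared batch, and the deviations of same-numbered libraries were uncorrelated (-0.01 to 0.04 over the 6 pairs of groups). With the replicate block 14 members passed in WH against WP, where 7.39% of all genes did, 14 in TH against TP, where 18.6% did, and 0 in the other comparisons, while the count of all genes became 45 in TP against WP and 625 in TH against WH. In WH against WP 9 members passed in the fit to all 8 libraries and 9 with the transcript-length offset, and 7 to 18 with a library left out. In TH against TP 0 passed with the transcript-length offset, beside 9.58% of all genes, and 2 with this offset and the block, beside 12.2%. With an offset for coding length, an alternative chosen after seeing the data, 1 passed, beside 11.5%. The members' median was 0.44 to 1.58 with a library left out. In TH against WH 2 passed with DESeq2, beside 5.86% of all genes, 3 without the filter, beside 5.69%, and 5 with the length offset and block, beside 4.27%. The members' median was -1.03 to -0.07 with a library left out. In the interaction 1 passed without the filter, beside 3.51% of all genes, 1 with length offset and block, beside 1.81%, and 1 with the coding-length offset, beside 1.8%. The members' median was -1.18 to 0.12 with a library left out. In TP against WP 0 passed in every alternative run. Where a group kept 1 library, that library was assumed to vary like the others.

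Of all genes, TP against WP called 223 with DESeq2, 306 without the filter and 75 to 432 with a library left out. TH against WH called 890 with DESeq2, 1055 without the filter, 771 in the fit to all libraries, 175 with the transcript-length offset, 640 with this offset and the block, 159 with the coding-length offset and 6 to 1595 with a library left out. WH against WP called 1588 without the filter and 652 to 1661 with a library left out, TH against TP 277 to 2676 with a library left out, and the interaction 680 with DESeq2, 675 without the filter and 138 to 721 with a library left out. Signs reversed for H2bc4 in TH against WH (-0.088 with the transcript-length offset, -0.089 with the block added, -0.20 with the coding-length offset), and, with a library left out, for H2aw in WH against WP (-0.67 to 0.063), H2ac18 in WH against WP (-0.51 to 0.33), and H2ac18 and H2ac19 in TH against TP (-2.08 to 0.091), none of which passed in the reported fit. The mean class sums moved by less than the spread between libraries when scaled to library totals, but TP and TH then no longer overlapped for H1 and H4. The causes were not tested.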
